A study of Mus musculus with 3 samples.

Results

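Astrocyte markers and genes of glutamate uptake, 10 in all, were described in cultured mouse cortical neurons: Gfap, Aldh1l1, Aqp4, Kcnj10, Slc1a2, Slc1a3, Aldoc, Gja1, Sox9 and S100b. They were taken from a list of symbols that was chosen with earlier results of these data known. All 10 were found among the 54232 genes counted. RNA was sequenced from wildtype CD1 cortical neurons in 3 groups with 1 library each. The IKVAV PA group received a peptide amphiphile (a peptide joined to a fatty tail that assembles into fibres) with the IKVAV sequence of laminin. The IKVAV PA + PEDOT-S group, called PEDOT-S from here on, had a further component, which the title names PS2 and the library name PEDOT-S_OH, and it is assumed here that both names mean the sulfonated conducting polymer PEDOT-S. The control is labelled PDL, which the labels do not spell out, and its treatment field reads peptide amphiphile like that of the others, so groups were taken from titles and library names. No label gives the age of the animals, the days in culture or any step against glia. Total counts were 124425958, 79057998 and 78993105 for the IKVAV PA, PEDOT-S and PDL libraries. All 12 neuron markers passed the expression filter, with summed levels of 12366, 12135 and 12066 CPM (counts scaled to library size, per 1e6) in the same order.

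Astrocytes clear synaptic glutamate through the transporters encoded by Slc1a2 (GLT-1) and Slc1a3 (GLAST) and turn it into glutamine, which neurons take up again. They also buffer potassium through Kir4.1, encoded by Kcnj10, move water through aquaporin-4 and share small molecules through connexin-43 junctions. In the developing cortex these cells arise from radial glia, which already express Slc1a3, Aldh1l1 and Sox9, while Gfap, Aqp4 and S100b are known more as markers of later or reactive astrocytes. Slc1a2 RNA is found mainly in astrocytes, and some neurons carry it too.

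Kcnj10, Gja1, Aldh1l1 and Slc1a3 were lower in both scaffold libraries than in the PDL control library, Aldoc, Aqp4 and Sox9 were lower in the IKVAV PA library, Slc1a2 lay at nearly the same level in all 3, and Gfap and Aldoc exceeded their IKVAV PA levels in the PEDOT-S library. A gene counted as lower or higher when the 95% counting interval of its ratio lay wholly beyond 1.5-fold. In IKVAV PA against PDL 7 of the 10 were lower and none was higher, as against 3.42% and 0.54% of the 13884 genes tested. In PEDOT-S against PDL 4 were lower and 1 was higher, against 3.76% and 0.447% of all genes tested. Between the scaffolds 2 were higher in the PEDOT-S library and none was lower, against 0.331% and 2.02%. The median log2 ratio of the 10 was -1.23, -0.49 and 0.38 in these comparisons, where the median of all genes tested was 0.00, 0.00 and 0.01. The first 2 comparisons share the PDL library, and in bulk RNA fewer cells of a type and less RNA per cell cannot be told apart. All labels read repeat 3, and with 1 library a group there is no replicate check and no p-value, and the intervals cover counting error only.

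Of the 10 genes, 9 passed the filter of 1 CPM in at least 1 library. Gfap passed only through the PEDOT-S library and Aqp4 only through the PDL library, so their passing already depends on the library in which they were high. S100b did not pass, and its values are given as a description.

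**Figure D1:**
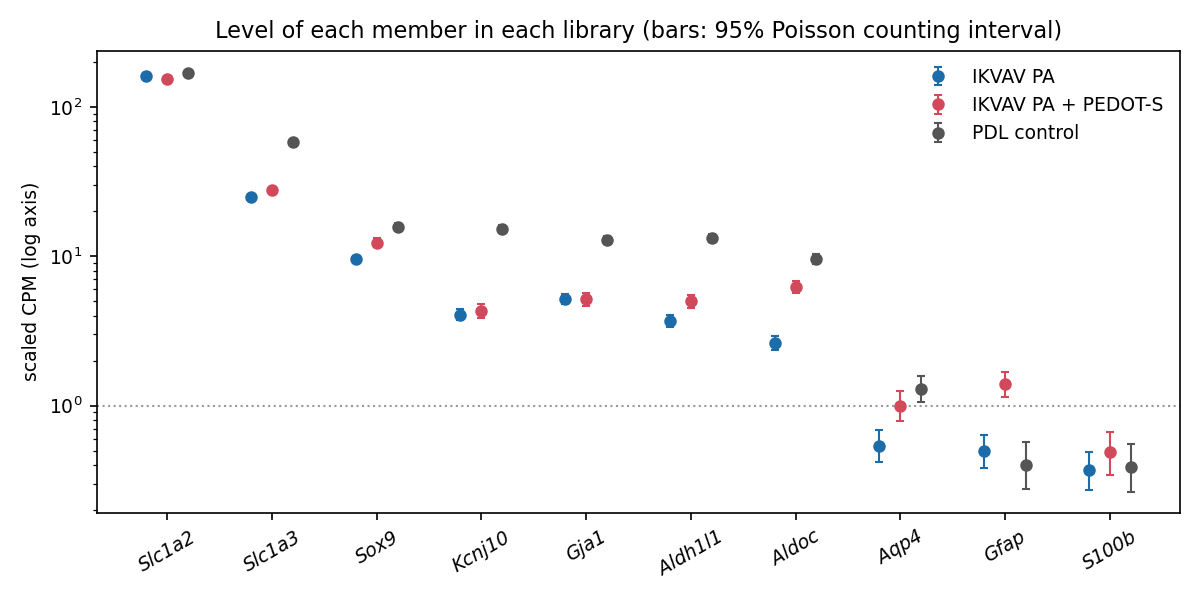
Level of each of the 10 genes in scaled CPM on a log axis, 1 point per library with its 95% Poisson counting interval, genes ordered by mean level, and the 1 CPM filter as a dotted line. Slc1a2 lies between 153 and 169 CPM in every library, while Slc1a3, Kcnj10, Gja1 and Aldh1l1 have both scaffold points well below the control point.

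Per kilobase of merged exons, Slc1a2 was the most abundant of the 10, with 11.7 to 12.9 CPM per kb over the 3 libraries. Its mean level stood at the 71.0 percentile of the genes tested. Slc1a3 followed with 2.91 to 6.77 CPM per kb, a range that did not overlap that of Slc1a2 but overlapped that of Sox9 (2.30 to 3.81). Aldoc (0.809 to 2.94), Aldh1l1 (0.812 to 2.93) and Kcnj10 (0.752 to 2.83) had ranges of levels per kb that nearly coincided. Gja1 came next (0.501 to 1.25 CPM per kb), overlapping Kcnj10. S100b (0.249 to 0.327), Gfap (0.0952 to 0.330) and Aqp4 (0.0862 to 0.207) were the least abundant per kb and overlapped each other, with means at the 3.93, 1.48 and 1.04 percentiles.

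The glutamate transporters parted from each other. Slc1a2 (chr2:102658659-102790784 on GRCm38, plus strand) had 20051 counts or 161 CPM in the IKVAV PA library, 12007 or 153 CPM in the PEDOT-S library and 13455 or 169 CPM in the PDL library. These levels lay within 1.10-fold of each other. The log2 ratio was -0.07 (interval -0.10 to -0.04) for IKVAV PA against PDL, -0.14 (-0.17 to -0.10) for PEDOT-S against PDL and -0.07 (-0.10 to -0.04) between the scaffolds. Slc1a3 (chr15:8634124-8710764, minus strand) had 3101, 2162 and 4605 counts in the same order, which is 24.9, 27.6 and 57.8 CPM. Both scaffold libraries lay below the control for Slc1a3, by 2.32-fold (log2 -1.22, interval -1.28 to -1.15) for IKVAV PA and by 2.09-fold (-1.07, -1.14 to -0.99) for PEDOT-S. Between the scaffolds Slc1a3 was within the bound (0.15, 0.07 to 0.23).

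Slc1a2 therefore made up a larger share of the counts of both transporters on the scaffolds, a value that does not depend on scaling between libraries. The share was 86.6% (95% Clopper-Pearson interval 86.2 to 87.0) in the IKVAV PA library, 84.7% (84.1 to 85.3) in the PEDOT-S library and 74.5% (73.9 to 75.1) in the PDL library. Per exon length the Slc1a2 level was 4.2, 3.61 and 1.90 times that of Slc1a3. The intervals of the 3 libraries did not overlap. Slc1a2 alone held 75.8%, 70.7% and 57.2% of the summed counts of the 10 genes. The summed level of the 10 was 212, 217 and 295 CPM, and that of the 9 without Slc1a2, a sum chosen after its values were seen, was 51.4, 63.5 and 127 CPM. Against 1000 counts of the neuron markers, the 10 genes had 17.2, 17.9 and 24.5 counts.

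The promoter windows of the transporters are shown because the RNA of these related transporters differed in its pattern over the libraries. Of the 10 genes, 8 matched a window in the RefSeq promoter table (GRCm38.p6), 250 bases before to 50 after a transcription start, 300 bases in all. Capitals mark every match, on either strand, of TTCNNNGAA (STAT), TTGGC (NFI), ACAAT (SOX core), TGGGAA (RBPJ) and CCAAT. The matches of TTGGC and CCAAT can overlap where one runs into the reverse complement of the other. Of 32851 windows of this length, 8.30% held the STAT letters, 46.7% TTGGC, 31.0% ACAAT, 25.6% TGGGAA and 37.4% CCAAT. The Slc1a2 window (chr2:102706188-102706487, plus strand) surrounds a start inside the annotated gene, and the Slc1a3 window lies at chr15:8710758-8711057 on the minus strand.
Slc1a2: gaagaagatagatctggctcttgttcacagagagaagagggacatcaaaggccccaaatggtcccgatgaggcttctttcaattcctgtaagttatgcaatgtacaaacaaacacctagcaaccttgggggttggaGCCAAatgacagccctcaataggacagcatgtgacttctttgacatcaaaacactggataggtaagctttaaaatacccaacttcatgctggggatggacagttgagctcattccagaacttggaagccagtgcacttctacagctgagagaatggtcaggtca
Slc1a3: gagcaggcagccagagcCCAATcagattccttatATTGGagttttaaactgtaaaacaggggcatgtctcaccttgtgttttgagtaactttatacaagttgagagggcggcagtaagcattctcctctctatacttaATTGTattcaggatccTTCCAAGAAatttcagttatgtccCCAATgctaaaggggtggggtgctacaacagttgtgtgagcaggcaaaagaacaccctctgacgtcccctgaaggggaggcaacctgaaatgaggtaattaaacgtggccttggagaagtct
The Slc1a2 window held 1 match, TTGGC at position -114 from the start, counted by the first base of the match. The Slc1a3 window held 5, with CCAAT at -233, -216 and -72, ACAAT at -112 and the STAT letters at -96. A match is a description of the letters and not a measured site.

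The other genes of glutamate uptake and the glutamine cycle mostly kept close to the control. Of 12 listed, 10 passed the filter, and 1 of these was lower in each scaffold library, none was higher and none passed the bound between the scaffolds. Over all genes tested, 3.42% and 3.76% were lower in the IKVAV PA and PEDOT-S libraries, and 0.54% and 0.447% were higher. The only listed gene past the bound is described next. It was Slc38a3, a glutamine transporter that exports glutamine from astrocytes, with 111, 93 and 194 counts in the IKVAV PA, PEDOT-S and PDL libraries (0.891, 1.19 and 2.44 CPM). Its log2 ratio to the control was -1.45 (-1.80 to -1.11) and -1.04 (-1.41 to -0.67). Glul, the glutamine synthetase of astrocytes, stood at 91.6, 100.1 and 95.3 CPM, with log2 ratios to the control of -0.06 and 0.07. The highest CPM of the list, not scaled by length, belonged to Slc38a1, a glutamine carrier of neurons (432, 460 and 452 CPM). The neuronal glutamate transporter Slc1a1, with 31.9% of its exonic bases shared with another gene and so uncertain, stood at 61.1, 64.6 and 62.8 CPM. The median log2 ratio of the list was -0.05, 0.03 and 0.09 in the 3 comparisons.

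Kcnj10, Gja1 and Aldh1l1 were lower in both scaffold libraries, at similar levels in the 2 scaffolds for the first 2. Kcnj10 (chr1:172341210-172374085, plus strand) had 507, 338 and 1220 counts, or 4.07, 4.32 and 15.3 CPM, in the IKVAV PA, PEDOT-S and PDL libraries. It was 3.77-fold lower in the IKVAV PA library (log2 -1.91, -2.06 to -1.76) and 3.55-fold lower in the PEDOT-S library (-1.83, -2.00 to -1.65). Between the scaffolds its log2 ratio was 0.09 (-0.12 to 0.29). Gja1, connexin-43 (chr10:56377330-56402513, plus strand), had 645, 402 and 1018 counts, or 5.18, 5.14 and 12.8 CPM. Its log2 ratios to the control were -1.30 (-1.45 to -1.16) and -1.32 (-1.49 to -1.15), and between the scaffolds -0.01 (-0.19 to 0.17). The control library thus stood apart from both scaffold libraries for these channel genes. Of the other astrocytic connexins, Gjb6 had no count in any library and Gjb2 at most 6.

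Aldh1l1, a folate enzyme widely used to mark astrocytes (chr6:90486427-90600203, plus strand), had 457, 390 and 1055 counts, or 3.67, 4.98 and 13.2 CPM. It was 3.61-fold lower in the IKVAV PA library (-1.85, -2.01 to -1.69) and 2.66-fold lower in the PEDOT-S library (-1.41, -1.58 to -1.24). Between the scaffolds it was 1.36-fold higher in the PEDOT-S library, within the bound (0.44, 0.24 to 0.64). Other genes share 13.4% of its exonic bases, and without a stated strand setting reads in those bases cannot be assigned, so its value is uncertain.

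Aqp4, the water channel of astrocyte endfeet, was rare, with 67, 78 and 103 counts, or 0.538, 0.997 and 1.29 CPM. It was 2.41-fold lower than the control in the IKVAV PA library (-1.27, -1.73 to -0.81) and within the bound in the PEDOT-S library (-0.38, -0.82 to 0.06). Between the scaffolds its log2 ratio of 0.89 had an interval of 0.40 to 1.38 and did not pass the bound. Of the counts of Aqp4 and Kcnj10 together, Aqp4 held 11.7% (9.16 to 14.6), 18.8% (15.1 to 22.8) and 7.79% (6.40 to 9.36) in the IKVAV PA, PEDOT-S and PDL libraries. The interval of the PEDOT-S library lay above the others.

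Genes that work with these channels at the astrocyte membrane differed among themselves. Of 14 listed, 10 passed the filter, of which 3 were lower in the IKVAV PA library and 2 in the PEDOT-S library, none was higher in either, and 1 was higher between the scaffolds. The shares of all genes tested were 3.42% and 3.76% lower against the control, and 0.331% higher between the scaffolds. Mlc1, a membrane protein of perivascular astrocytes, stood at 3.02, 4.11 and 9.57 CPM in the IKVAV PA, PEDOT-S and PDL libraries and was lower in both scaffolds (-1.66 and -1.22). Hepacam, the adhesion partner of Mlc1, stood at 1.91, 2.07 and 5.08 CPM and was lower in both as well (-1.41 and -1.30). Dag1, dystroglycan (209, 207 and 223 CPM), and the sodium pump subunit Atp1b2 (114, 107 and 110 CPM) had the highest CPM of the list, not scaled by length, and lay close together over the libraries. The list had median log2 ratios of -0.34, -0.29 and 0.04.

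**Figure D2:**
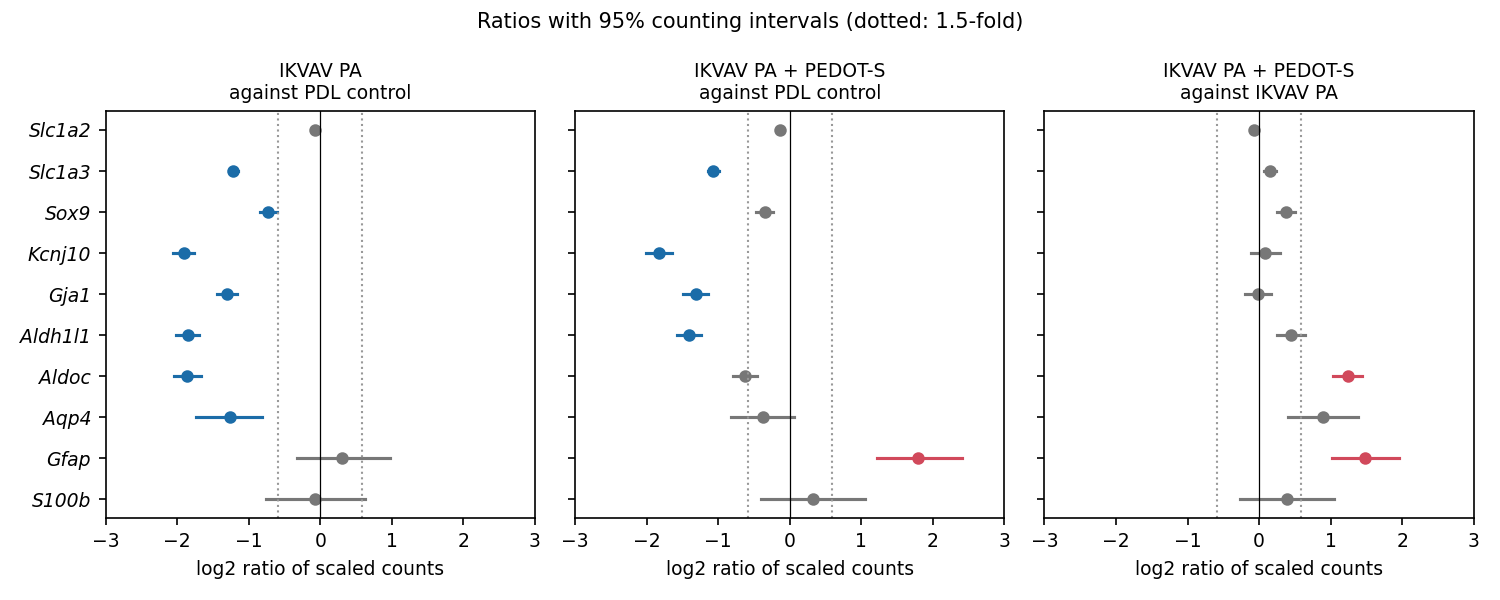
Log2 ratios of scaled counts for the 10 genes in the 3 comparisons, 1 panel each, with 95% counting intervals as bars and the 1.5-fold bound as dotted lines; blue marks genes lower and red marks genes higher beyond the bound. Kcnj10, Gja1, Aldh1l1 and Slc1a3 are blue in both panels against the control, and Gfap and Aldoc are red in the panel between the scaffolds.

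Gfap and Aldoc were the genes that differed between the scaffolds beyond the bound. Gfap, the intermediate filament of astrocytes (chr11:102887336-102900912, minus strand), had 62, 109 and 32 counts, or 0.497, 1.39 and 0.402 CPM, in the IKVAV PA, PEDOT-S and PDL libraries. The PEDOT-S library was the only one above 1 CPM. Gfap was 3.47-fold higher there than in the control (1.79, 1.21 to 2.41) and 2.80-fold higher than in the IKVAV PA library (1.49, 1.02 to 1.96). IKVAV PA against the control was within the bound (0.31, -0.33 to 0.97). Aldoc, the brain aldolase enriched in astrocytes (chr11:78322968-78327781, plus strand), had 329, 487 and 763 counts, or 2.64, 6.22 and 9.58 CPM. Here the control was highest and the IKVAV PA library lowest, at 3.63-fold below the control (-1.86, -2.05 to -1.67). The PEDOT-S library was 2.36-fold above the IKVAV PA library (1.24, 1.03 to 1.44) and 1.54-fold below the control, which did not pass the bound (-0.62, -0.79 to -0.46). The order of the libraries thus differed between these genes.

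Both genes were set against a related gene in the same library. Vim, the vimentin filament that Gfap joins in astrocytes and that many dividing and mesenchymal cells also make, stood at 113, 124 and 198 CPM and was lower in both scaffolds (-0.81 and -0.67). Gfap held 0.439% (0.337 to 0.562) of the counts of both filaments in the IKVAV PA library, 1.11% (0.913 to 1.34) in the PEDOT-S library and 0.203% (0.139 to 0.286) in the PDL library. Per exon length the Gfap level was 0.00496, 0.0126 and 0.00229 times that of Vim, so Vim RNA was in large excess in every library. Aldoa, the aldolase of most tissues, stood at 290, 309 and 333 CPM, within the bound in all comparisons. Aldoc held 0.902% (0.808 to 1.005), 1.97% (1.80 to 2.15) and 2.80% (2.60 to 3.00) of the counts of both aldolases in the same order, and the intervals did not overlap. Of 12 listed glycolysis and lactate genes, Aldoa among them, 9 passed the filter and none of these passed the bound in any comparison, with median log2 ratios of -0.17, -0.08 and 0.14.

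**Figure D3:**
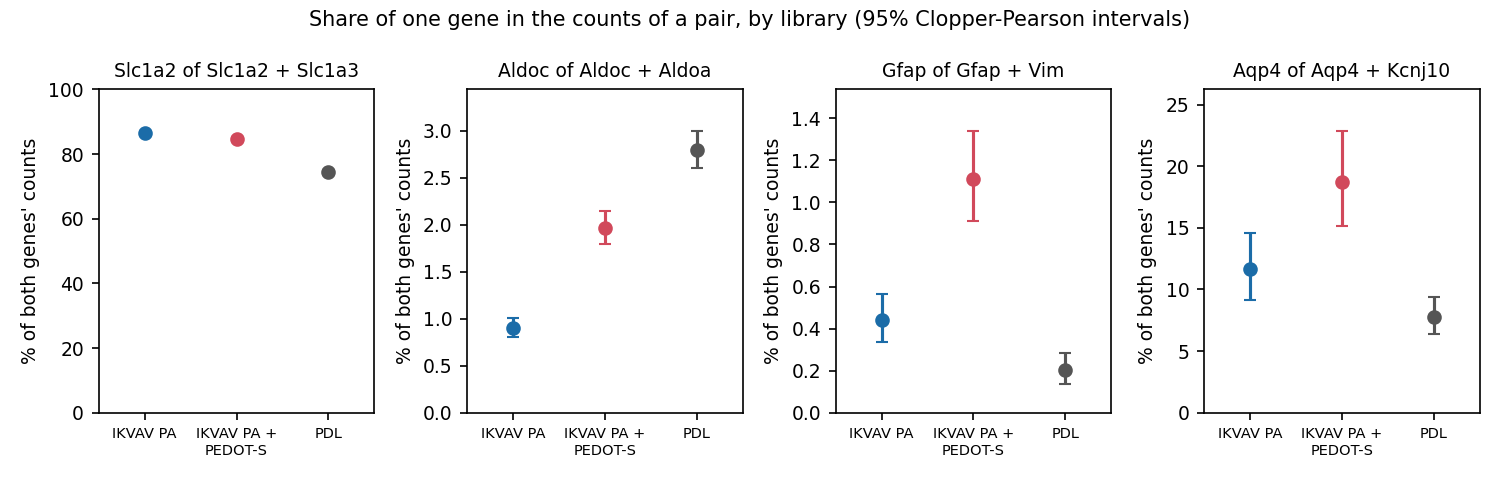
Counts of the first gene of a pair as a percentage of the counts of both, by library, with 95% Clopper-Pearson intervals; each panel has its own axis starting at 0. Slc1a2 has its lowest share in the PDL library (74.5%), Gfap and Aqp4 have their highest in the PEDOT-S library (1.11% and 18.8%), and Aldoc has its lowest in the IKVAV PA library (0.902%).

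The promoter windows of Gfap and Aldoc are shown as those of the genes that differed between the scaffolds, with capitals as above. The Gfap window (chr11:102897151-102897450, minus strand) surrounds a start inside the annotated gene. The Aldoc window, the first of 2 in the table, lies at chr11:78322823-78323122 on the plus strand.
Gfap: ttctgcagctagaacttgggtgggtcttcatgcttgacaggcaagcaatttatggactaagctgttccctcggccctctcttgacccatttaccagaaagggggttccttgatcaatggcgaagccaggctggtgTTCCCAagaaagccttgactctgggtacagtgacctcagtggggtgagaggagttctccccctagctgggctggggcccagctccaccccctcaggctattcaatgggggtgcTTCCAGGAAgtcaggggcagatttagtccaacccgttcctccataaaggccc
Aldoc: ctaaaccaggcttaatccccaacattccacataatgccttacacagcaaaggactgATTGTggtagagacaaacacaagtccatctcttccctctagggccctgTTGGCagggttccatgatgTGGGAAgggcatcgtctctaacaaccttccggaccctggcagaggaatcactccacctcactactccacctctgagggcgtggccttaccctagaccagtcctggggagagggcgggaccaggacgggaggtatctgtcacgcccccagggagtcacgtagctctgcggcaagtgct
The Gfap window held the STAT letters at -2 and TGGGAA at -115. The first Aldoc window held TTGGC at -146, ACAAT at -194 and TGGGAA at -127, and its second window, which is not shown, held the STAT letters at -124 and -83 and TGGGAA at -17 and 18. The windows printed for Gfap and Aldoc both held TGGGAA, as did the Aldh1l1 window (-150), the S100b window (-234) and 25.6% of all windows. These letters thus do not set the 2 genes apart.

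Sox9 and S100b showed the smallest ranges after Slc1a2. Sox9, a transcription factor of glial fate (chr11:112782224-112787760, plus strand), had 1187, 966 and 1255 counts, or 9.52, 12.3 and 15.8 CPM. It was 1.65-fold lower than the control in the IKVAV PA library (-0.73, -0.84 to -0.61) and within the bound in the PEDOT-S library (-0.35, -0.47 to -0.23) and between the scaffolds (0.37, 0.25 to 0.50). Sox9 held 92.8% (91.3 to 94.2), 92.3% (90.5 to 93.8) and 92.4% (90.9 to 93.8) of the counts of Sox9 and Sox10, the related factor of the oligodendrocyte lineage, and these intervals overlapped. S100b, a calcium-binding protein of astrocytes and oligodendrocyte lineage cells (chr10:76253853-76261159, plus strand), had 46, 38 and 31 counts, or 0.369, 0.485 and 0.389 CPM. Its intervals against the control (-0.76 to 0.63 and -0.40 to 1.05) and between the scaffolds (-0.26 to 1.05) all included no difference, and at these counts a difference smaller than about their width was not detectable.

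Among 14 other glial transcription factors 13 passed the filter, of which 3 were lower in the IKVAV PA library and 2 in the PEDOT-S library, none was higher, and none passed the bound between the scaffolds. For all genes tested the shares lower were 3.42% and 3.76%. Rfx4, a factor of neural progenitors and astrocytes, stood at 2.61, 2.44 and 7.22 CPM in the IKVAV PA, PEDOT-S and PDL libraries (-1.47 and -1.56 against the control). Id3, an inhibitor of helix-loop-helix factors, had 55, 20 and 110 counts and passed the filter only through the PDL library (-1.65 and -2.43). Sox8, a relative of Sox9 with 10.6% of its exonic bases shared and so uncertain, was lower in the IKVAV PA library alone of the 2 scaffolds by the bound (-1.17 against -0.63). Nfix and Nfib, nuclear factor I proteins that neurons also express, had the highest CPM (992, 996 and 887 CPM for Nfix, and 409, 450 and 401 CPM for Nfib) and lay within the bound. The list medians were -0.21, -0.09 and 0.07.

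Of 30 other astrocyte markers 26 passed the filter. Among these, 17 were lower in the IKVAV PA library and 13 in the PEDOT-S library, none was higher in either, and none passed the bound between the scaffolds. For all genes tested the shares lower were 3.42% and 3.76%, and the shares higher 0.54% and 0.447%. The medians were -0.86, -0.67 and 0.18. Slc39a12 and Chrdl1 passed the filter only through the PDL library (1.17 and 1.54 CPM), and Ntsr2 only through the IKVAV PA library (1.05 CPM). The passing of these genes thus depends on the library in which they were high. Slco1c1, a thyroid hormone transporter, stood at 1.11, 1.33 and 4.44 CPM (-2.00 and -1.74 against the control), and Bcan, the proteoglycan brevican, at 5.87, 6.86 and 17.5 CPM (-1.58 and -1.35). Pla2g7 (-1.94 and -1.21) and Tril (-1.85 and -1.52) were lower too, but both overlap other genes by over 10% of their exonic bases, so their values are uncertain. Gpc4, a glypican that astrocytes secrete, was lower in both scaffolds (-0.91 and -1.17). The markers with the highest CPM of the list lay close together over the libraries. They were Sparcl1, hevin (136, 113 and 118 CPM), and Slc6a11, a GABA transporter (103, 96.0 and 97.9 CPM), each within the bound in every comparison.

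Of 17 reactive astrocyte genes only 8 passed the filter. Of these, 6 were lower in each scaffold library, none was higher, and 2 were lower between the scaffolds, with medians of -0.95, -1.04 and -0.22. In the same comparisons 3.42%, 3.76% and 2.02% of all genes tested were lower. Cp passed the filter only through the PDL library (1.61 CPM) and Serpina3n only through the PEDOT-S library (1.03 CPM), so their passing depends on those libraries. Cd44, a hyaluronan receptor that fibroblasts also express, stood at 2.41, 0.984 and 7.46 CPM (-1.63 and -2.92 against the control) and was lower with PEDOT-S between the scaffolds (-1.29, -1.67 to -0.93). Cd109, a surface protein, stood at 2.64, 1.18 and 6.21 CPM and was lower in all 3 comparisons (-1.24, -2.40 and -1.17). Emp1, a membrane protein of many epithelial and mesenchymal cells, was lower in both scaffolds (-2.00 and -2.35). Lcn2 had at most 3 counts, and C3, Timp1 and Cxcl10 did not pass the filter. Gfap, counted among the reactive genes in many studies, had its highest level in the PEDOT-S library, where Cd44 and Cd109 had their lowest. Against the control all 8 genes had a negative log2 ratio in IKVAV PA, and 7 a negative and 1 a positive one in PEDOT-S. Between the scaffolds 3 of the 8 genes had a positive ratio, none of them beyond the bound, and 5 a negative one. Serpina3n, like Gfap, passed the filter only through the PEDOT-S library. It stood at 0.722, 1.03 and 0.879 CPM in the IKVAV PA, PEDOT-S and PDL libraries. Its counting intervals overlapped (0.581 to 0.888, 0.822 to 1.29 and 0.685 to 1.11 CPM), so they do not set the libraries apart. Serpina3n was not higher beyond the bound in any comparison.

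**Figure D4:**
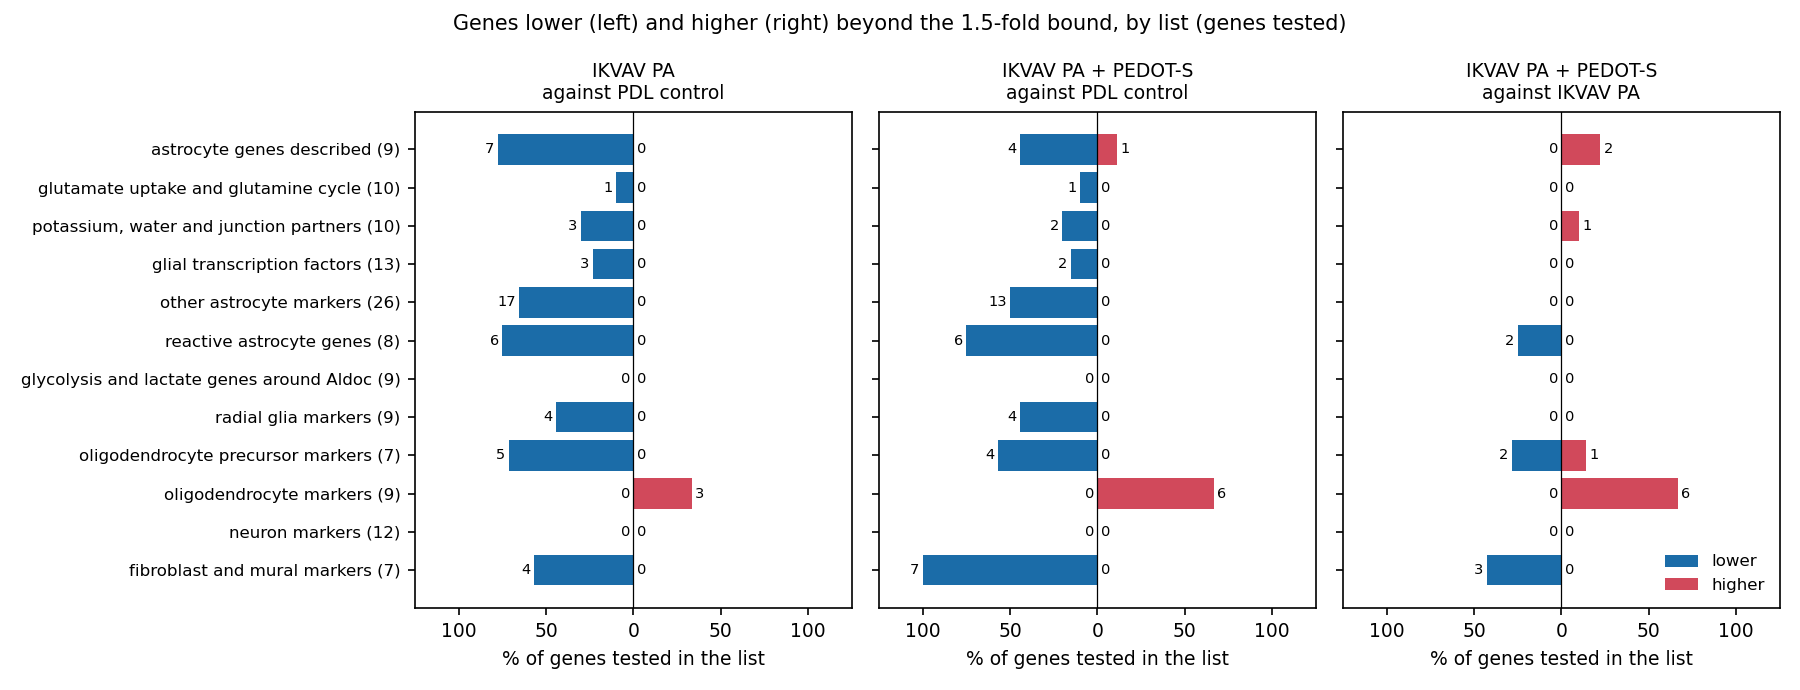
Percentage of tested genes in each list that were lower (blue, to the left) or higher (red, to the right) beyond the 1.5-fold bound in the 3 comparisons, with the counts printed at the bars and the number of genes tested in brackets. The bars of the astrocyte lists lie to the left in both panels against the PDL control, except for 1 gene described (Gfap) to the right in the PEDOT-S panel, the neuron and glycolysis lists have no bar, and the oligodendrocyte list lies to the right.

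Markers of other cells differed between the same libraries. Against the control, 3.42% (IKVAV PA) and 3.76% (PEDOT-S) of all genes tested were lower, and 0.54% and 0.447% were higher. Between the scaffolds 0.331% were higher. Radial glia markers were lower in 4 of 9 tested in each scaffold library, with summed levels over 11 genes of 577, 622 and 922 CPM in the IKVAV PA, PEDOT-S and PDL libraries. This list shares Vim with the reactive genes, and Sox2 and Hes5 with the transcription factors. Fabp7, which binds fatty acids and marks radial glia, stood at 29.5, 39.8 and 112 CPM. Oligodendrocyte precursor markers were lower in 5 and 4 of 7, with sums over 8 genes of 37.7, 32.5 and 86.2 CPM, and fibroblast and mural markers in 4 and 7 of 7, with sums over 10 genes of 59.7, 27.2 and 145 CPM. Oligodendrocyte markers went the other way, with 3 and 6 of 9 higher, sums over 10 genes of 71.8, 104 and 58.8 CPM, and 6 of 9 higher between the scaffolds. Of these, Mal and Ermn passed the filter only through the PEDOT-S library (1.53 and 1.09 CPM). Gpr17, a precursor marker, passed only through the PDL library (1.02 CPM). The passing of these genes already depends on the library in which they were high. Microglia markers summed to 6.77, 6.67 and 6.06 CPM with 2 of 10 past the filter, endothelial markers to 4.75, 4.16 and 7.43 CPM with 3 of 8, and choroid plexus and ependymal markers to 11.6, 19.3 and 19.0 CPM with 3 of 8. Of the listed markers of these other cells only Tmem212 was at 0 in all 3 libraries. The part of these other cells in the values of the 10 genes was not tested.

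By the distance between the pair of log2 ratios to the control, over 3 libraries and 10309 protein-coding genes at a mean of 5 CPM or more, the genes nearest to Kcnj10 were Olig2, Olig1 and Mki67 (distances of 0.07, 0.15 and 0.20 on the log2 scale). Those nearest to Aldh1l1 were Fabp7, Lamb2 and Mlc1 (0.11, 0.21 and 0.27), and those nearest to Slc1a3 were Tpx2, Mcm3 and Pdlim5 (0.07, 0.08 and 0.09). Among the genes near Aldoc were Mlc1 and Gldc at 0.62 and 0.65, and among those near Gfap were Slc1a5 and Mbp at 0.75 and 0.82. With 3 libraries that share 1 control, these distances describe the libraries only.

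The calls were also read with an assumed biological variation of 0.2 (coefficient of variation) added to each interval, since culture-to-culture spread could not be measured. With this variation, 3 of the 7 genes stayed lower in the IKVAV PA library, Kcnj10, Aldh1l1 and Aldoc, where 1.1% of all genes tested were lower and 0.0648% higher. In the PEDOT-S library Kcnj10 and Aldh1l1 stayed lower and Gfap higher, against 1.56% and 0.0792% of all genes tested. Gfap is among the genes tested only through the PEDOT-S library, so its calls do not stand apart from the filter. Between the scaffolds neither Gfap (0.57 to 2.40) nor Aldoc (0.41 to 2.06) stayed past the bound, where 0.0216% of all genes were higher and 0.375% lower. With a 2-fold bound and counting error alone, 5 of the 10 were lower in the IKVAV PA library, where 1.58% of genes tested were lower and 0.0648% higher. In the PEDOT-S library 3 were lower and Gfap was higher (1.86% and 0.0936% of genes tested). Between the scaffolds Gfap and Aldoc were higher (0.0504% of genes tested were higher and 0.54% lower).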

How the data were processed

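Values are the deposited raw counts of reads per Ensembl gene for 3 libraries with 1 library per group (IKVAV PA, IKVAV PA + PEDOT-S and PDL). Per the submitters' processing notes the authors used mm10, with HTSeq 2.0.2, STAR 2.7.5, DESeq2 1.14.1 and cutadapt 4.2 among the tools. Strand setting, annotation and filters were not given in the sources used here. Per the labels' protocols libraries were made from total RNA with a TruSeq kit, whereas the molecule field reads polyA RNA.

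Of 54232 identifiers, 54079 were found in GENCODE M21 (GRCm38), the source of symbols, positions and merged exon lengths. Aldoa stands on 2 identifiers, of which the one with more counts was used. Libraries were scaled by TMM factors (edgeR 4.0.16, R 4.3.3) of 1.00, 0.990 and 1.01 in the order above, computed on the 13884 genes at 1 CPM or more in at least 1 library. Ratios have exact binomial 95% intervals, which leave out amplification and culture-to-culture spread. List medians use a prior count of 2. A gene with over 10% of its exonic bases shared with another gene was marked uncertain. Named genes are the 10 members, up to 4 genes per list and comparison past the bound and the 2 most abundant of each list, chosen by their intervals and levels, and the 3 genes nearest in pattern to a member; others named were picked after their values were seen. Some genes that meet this rule are left out here. The members and lists were chosen with earlier results of these data known. The ratio script was tested on simulated data. Alternatives were other scalings (DESeq2 1.42.0 size factors, total counts, the neuron list), filters, a 2-fold bound, thinned libraries, an assumed biological variation, another prior count and protein-coding genes only.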

Additional observations from a re-analysis of the deposited data

How the results depend on the processing

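With DESeq2 size factors, total counts, the neuron list as the standard, thinned libraries, another prior count, no filter and protein-coding genes alone, each of the 9 genes past the filter kept its side of the 1.5-fold bound in the 3 comparisons. With the neuron list as the standard, the Slc1a2 log2 ratio between the scaffolds went from -0.069 to -0.031, outside its counting interval. The small Slc1a2 differences thus depend on the scaling. The medians of the 9 genes past the filter were -1.24 and -0.62 for IKVAV PA and PEDOT-S relative to the control and 0.37 between the scaffolds. A filter of 5 CPM left 7 genes, without Gfap, Aqp4 and S100b. It lowered the number of genes higher in the PEDOT-S library to 0 against the control and to 1 between the scaffolds, and moved those medians to -1.06 and 0.15. At this filter 37 and 23 of the 10893 genes tested were higher in the same comparisons. The 2-fold bound ended the calls of Aqp4 and Sox9 in IKVAV PA and of Slc1a3 in PEDOT-S. An assumed biological variation of 0.2 lowered the genes lower in IKVAV PA from 7 to 3, those lower in PEDOT-S from 4 to 2 and those higher between the scaffolds from 2 to 0. With it, 1.1%, 1.56% and 0.0216% of all genes tested were called in these directions. No paired analysis was possible because each group has 1 library, all of them repeat 3. Depth limits Gfap, Aqp4 and S100b, which have at most 109 counts.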
